A study of Drosophila melanogaster with 4 samples.

Results

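The homeotic genes of Drosophila melanogaster lie in 2 complexes on chromosome arm 3R. The Antennapedia complex holds lab, pb, Dfd, Scr and Antp, and the bithorax complex holds Ubx, abd-A and Abd-B. Binding of JHDM1 in these complexes was taken from lists of enriched regions, called clusters here, in which ChIP signal exceeded input chromatin. Every cluster on 3R that overlapped 2480000 to 2835000 (the Antennapedia complex) or 12480000 to 12800000 (the bithorax complex) was included, in the coordinates of FlyBase release 5. This gave 18 of the 7836 clusters of replicate 1, 17 of the 7074 of replicate 2, and 22 of the 8005 of the list deposited for the whole series. Of these, 10, 9 and 11 fell in the Antennapedia complex and 8, 8 and 11 in the bithorax complex. The choice used positions alone, and no score or length.

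The study immunoprecipitated chromatin from head nuclei of mixed adult flies with the JHDM1 antibody Q2634. There was 1 group of 2 ChIP libraries, each set against its own input library. All flies were of the wild-type Oregon-R strain (Oregon-R-modENCODE), raised in population cages and untreated as far as the labels say. Heads were pooled, so cells of the brain, eyes, muscle and fat body contribute together, and a cluster cannot be assigned to a cell type. The labels do not state that the replicates are separate collections, and the spread between them may be technical. Read depth is unknown for these libraries, so the lack of a cluster means that none was called, not that the protein was absent.

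JHDM1, known in the fly as Kdm2, is a histone demethylase of the JmjC family. In Drosophila it was found in a complex with the Polycomb group proteins dRing and Psc. Polycomb group proteins keep homeotic genes silent in the body segments where those genes do not act, and the homeotic complexes are the classical targets of this repression. The homeotic genes encode homeodomain transcription factors that give body segments their identity. lab, pb, Dfd and Scr act in head segments and Scr also in the first thoracic segment, Antp acts in the thorax, Ubx in the posterior thorax and anterior abdomen, and abd-A and Abd-B in the abdomen.

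Both complexes were thinly covered by JHDM1 clusters. Clusters took up 8.72% of the Antennapedia complex in replicate 1 and 7.69% in replicate 2 (mean 8.20% ± 0.73, SD, n = 2). In the bithorax complex they took up 5.67% and 4.83% (5.25% ± 0.59). The rest of 3R was covered at 22.3% and 22.1%. The complexes together were covered 0.307 ± 0.028 fold as densely as the rest of the arm (SD, n = 2). This SD is the spread between the replicates and does not measure how coverage varies along the arm. The bithorax complex was the less covered complex in each library. The smallest two-sided p that flipping the signs of 2 values can give is 0.5, and the replicates were therefore not tested.

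Windows of the same length, placed every 50 kb along 3R and overlapping neither complex, gave the range to set these shares against. For the length of the Antennapedia complex there were 525 windows, with a median covered share of 21.2% in replicate 1 and 20.4% in replicate 2. Of these, 19 in replicate 1 and 15 in replicate 2 were covered as thinly as that complex or more thinly, which places it at percentiles 3.62 and 2.86. For the length of the bithorax complex there were 527 windows, with medians of 20.9% and 20.9%. Here 6 windows in replicate 1 and 3 in replicate 2 were at or below the complex, at percentiles 1.14 and 0.569. Neighbouring windows overlap and share libraries, so these ranks are descriptions. The mean percentile of the Antennapedia complex, 3.24, was 1.14 in the whole-series list, 6.60 among windows on 2L, 2R, 3L and 3R, and 9.81 when clusters below the median score of each list were left out. That of the bithorax complex, 0.854, was 1.33, 2.84 and 2.09 in the same settings, and its covered share was 2.83% with the higher-scoring clusters alone.

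**Figure D1:**
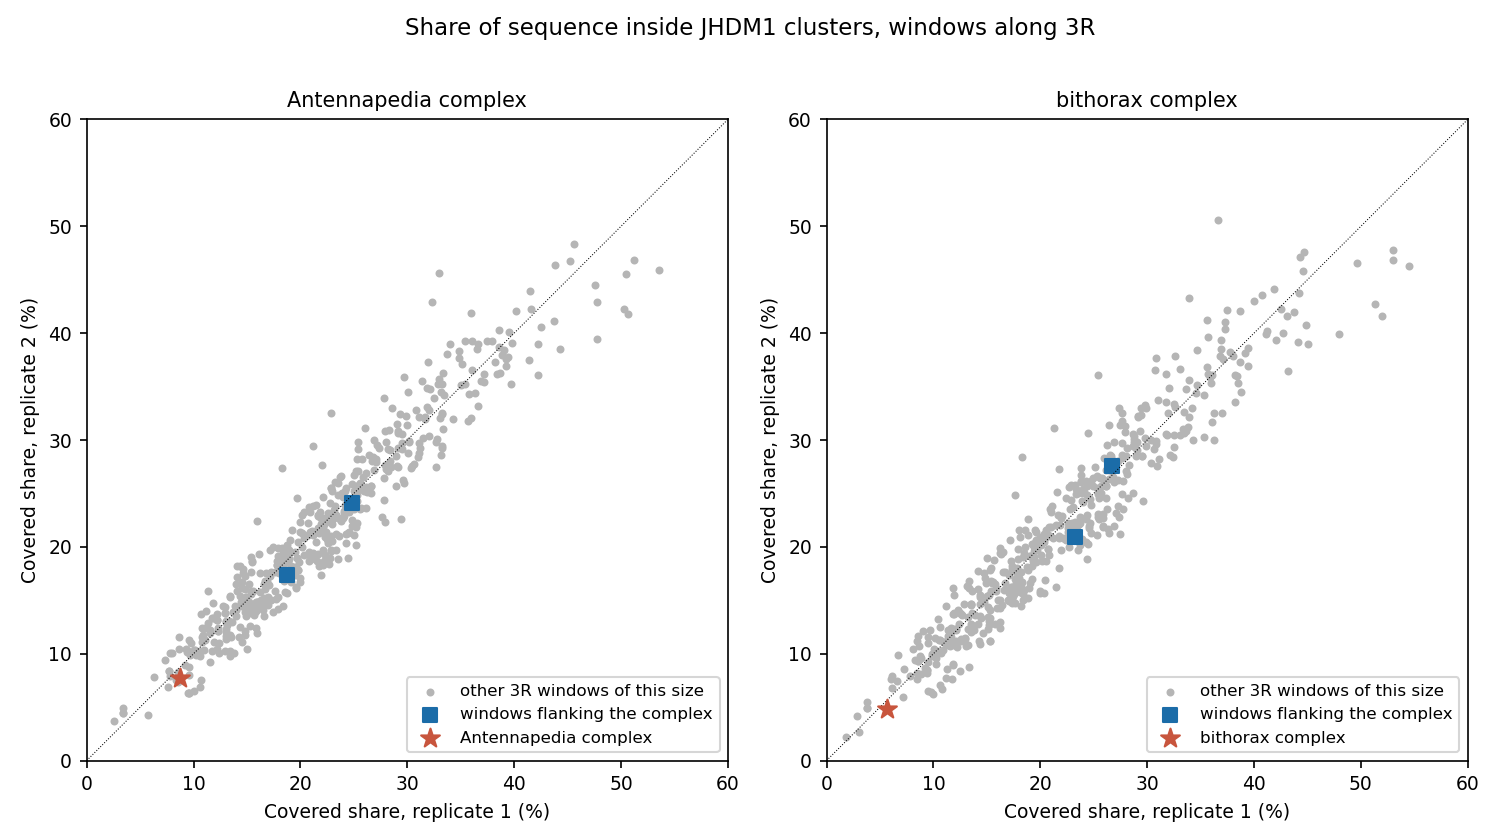
Covered share (percent of the sequence inside clusters) in replicate 1 (x axis) and replicate 2 (y axis) for 3R windows of the length of each complex, every 50 kb (grey), for the windows on either side of the complex (blue squares) and for the complex itself (red star). The complexes lie in the lower left corner, at 8.72% and 7.69% for the Antennapedia complex and 5.67% and 4.83% for the bithorax complex, while their flanks lie at 17.4% or more in both replicates.

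The stretches beside the complexes were more densely covered. The one of equal length below the Antennapedia complex was covered at 18.7% in replicate 1 and 17.4% in replicate 2, and the stretch above it at 24.8% and 24.1%. The stretch below the bithorax complex was covered at 26.7% and 27.6%, and the stretch above it at 23.3% and 21.0%. The complexes had both fewer and shorter clusters than most windows. The Antennapedia complex held 10 and 9 clusters against a window median of 21, with 28 and 13 of the 525 windows holding as few. The bithorax complex held 8 and 8 against a median of 19, with 24 and 17 of the 527 windows holding as few. The median cluster length was 2264 bp and 2146 bp in the Antennapedia complex and 2105 bp and 1720 bp in the bithorax complex, against 2782 bp and 2664 bp over all of 3R.

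**Figure D2:**
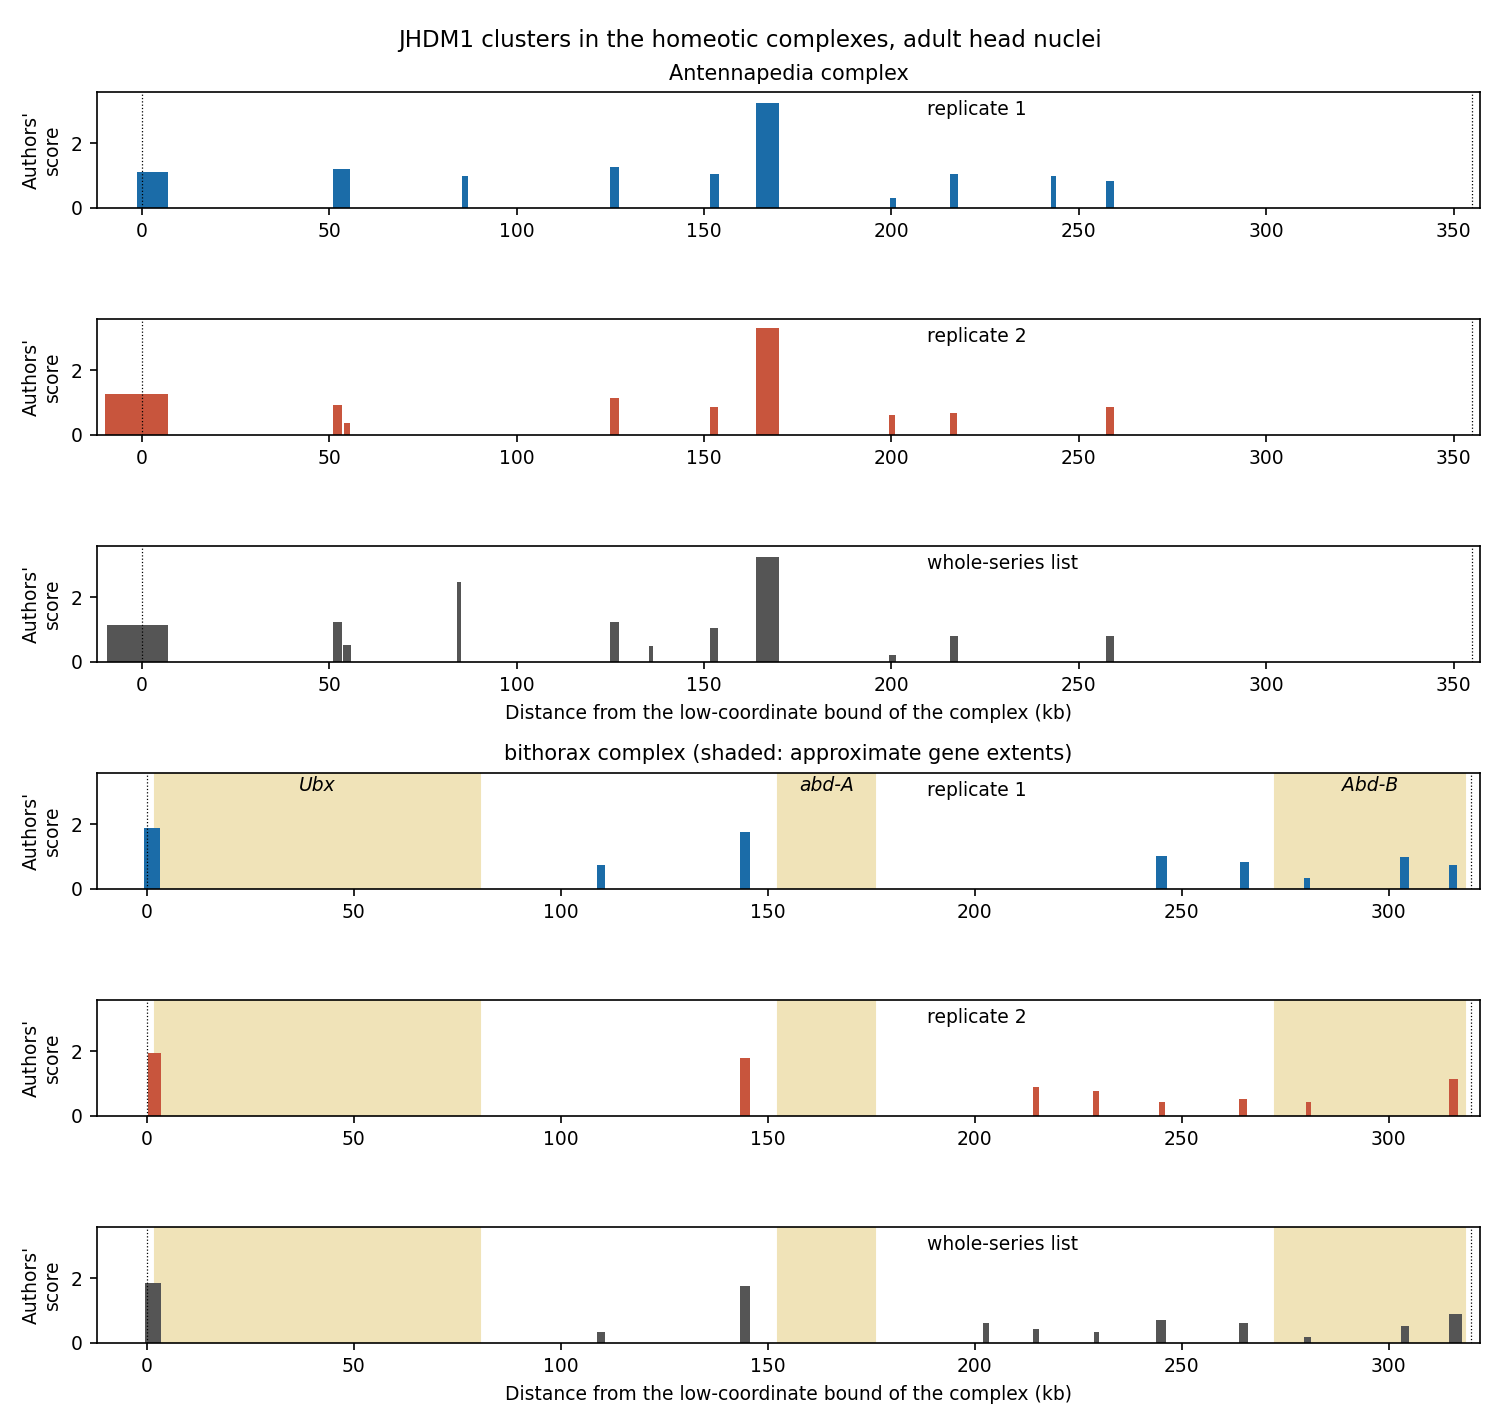
Clusters along each complex in the 3 lists: the x axis is the distance in kb from the low-coordinate bound (dotted lines mark the bounds), the width of a bar is the cluster and its height is the authors' score, whose unit is not given. The tallest cluster of each list lies about the middle of the Antennapedia complex (score 3.26 in replicate 1 and 3.31 in replicate 2), and the extents of Ubx and abd-A (shaded) are almost free of clusters.

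In the Antennapedia complex the covered length was greatest at the low-coordinate end and in the middle. By gene order, from the gene table of Release 6 and without its coordinates, lab lies at the low end, followed by cuticle protein genes, pb, the paralogues zen2 and zen, bcd, Ama, Dfd, mir-10, Scr, the segmentation gene ftz and, at the high end, Antp. The extents of these genes in release 5 were not used here, so the complex was cut into 5 parts of 71.0 kb and clusters were not assigned to genes. Part 1 was covered at 16.3% and 15.5% in replicates 1 and 2 (15.9% ± 0.57, SD, n = 2) and part 3 at 14.1% and 14.1% (14.1% ± 0.028). These shares lie within the middle of the range of 3R windows, at percentiles 42.8 and 40.6 for part 1 and 39.5 and 38.4 for part 3. Of the 11549 bp and 10976 bp covered in part 1, 6987 bp and 6960 bp came from 1 cluster that straddled the low bound. The share of part 1 thus depends on where that bound was set. Part 2 was covered at 5.30% and 3.20% and part 4 at 7.95% and 5.64%. Part 5, at the Antp end, held no cluster in any of the 3 lists. Of the 542 windows of that length, 44 in replicate 1 and 45 in replicate 2 were also empty (8.12% and 8.30%).

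The highest-scoring site of either complex was a 6 kb cluster in part 3. It ran from 2643884 to 2650011 in replicate 1 and from 2643714 to 2649889 in replicate 2. Its scores were 3.26 and 3.31, and among the clusters of 3R it ranked 6 of 1682 and 2 of 1649. In the whole-series list it spanned 2643822 to 2650004 with a score of 3.26, rank 2 of 1703. By length it ranked 206 and 216 on the arm. The next highest score of either complex in a replicate list was 1.95.

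The longest cluster straddled the low bound of the Antennapedia complex, at the lab end. Replicate 2 had 1 cluster there from 2470189 to 2486959 (16.8 kb, score 1.28, the eighth longest on 3R), and the whole-series list 1 from 2470606 to 2487002 (16.4 kb). Replicate 1 had 2 clusters in its place, 1 from 2478632 to 2486986 (8.36 kb, score 1.12) and 1 wholly below the bound from 2471343 to 2478387 (7045 bp, score 1.24). The high-coordinate edge lay at 2486986 and 2486959, 27 bp apart. Clusters over 10 kb were 3.45% of 3R clusters in replicate 1, 4.37% in replicate 2 and 7.52% of those deposited for the whole series. In replicate 2 and the whole-series list this cluster was the sole one in either complex, and replicate 1 had none there. Beyond the high bound of this complex, the next cluster started 27.6 kb away in replicate 1 (score 0.598) and 56.9 kb away in replicate 2 (score 1.50).

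The other sites of the Antennapedia complex were small. A site in part 1 was 1 cluster in replicate 1, from 2531023 to 2535584 (score 1.19), and 2 in replicate 2, from 2530980 to 2533246 (0.933) and from 2533828 to 2535576 (0.360). A site in part 2 lay at 2604853 to 2607213 in replicate 1 (score 1.28) and 2604875 to 2607144 in replicate 2 (1.16). Part 3 also held clusters at 2631512 to 2633886 (1.05 and 0.873) and 2679595 to 2681095 (0.295 and 0.630), given by the coordinates of replicate 1. The latter was among the lowest-scoring clusters of the arm in replicate 1, at rank 1676 of 1682. Part 4 held clusters at 2695653 to 2697770 (1.06 and 0.682) and 2737171 to 2739338 (0.827 and 0.861). Found in replicate 1 alone were 2 short clusters, from 2565460 to 2566864 (score 0.986) and from 2722458 to 2723812 (1.00).

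**Figure D3:**
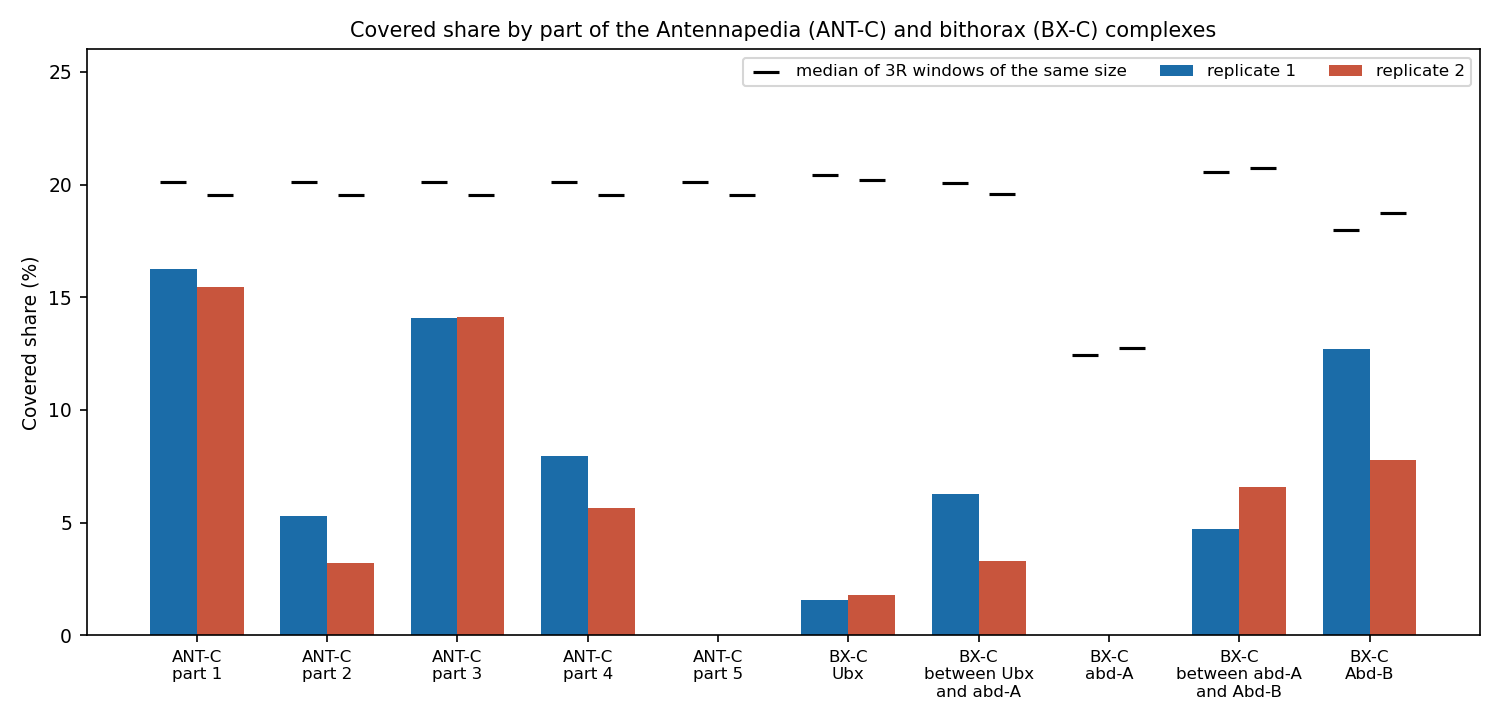
Covered share in each part of the complexes (bars, percent of sequence inside clusters, 1 bar per replicate) with the median of 3R windows of the same length in that replicate (black dashes). Every part lies below its median in both replicates; part 5 of the Antennapedia complex and the abd-A extent have no bar because no cluster was called there.

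In the bithorax complex the clusters lay mainly outside the gene bodies of Ubx and abd-A. Ubx, taken as about 12482000 to 12560500, was covered at 1.57% in replicate 1 and 1.79% in replicate 2 (1.68% ± 0.15, SD, n = 2), all of it from 1 cluster at its low-coordinate end. Among 3R windows of that length these shares lie at percentiles 7.01 and 7.56, and 6.27% and 6.64% of the windows were empty. The overlap was 1234 bp and 1406 bp, so the share of Ubx depends on where its approximate end was set. The abd-A extent, about 12632500 to 12656000, held no cluster in any list, as did 172 and 171 of 545 windows of its length (31.6% and 31.4%). For a stretch this short, an empty window was thus common on 3R. Abd-B, about 12752500 to 12798500, was covered at 12.7% and 7.78% (10.2% ± 3.48), at percentiles 41.8 and 30.4. The interval between Ubx and abd-A was covered at 6.27% and 3.29%, at percentiles 22.1 and 14.8. That between abd-A and Abd-B was covered at 4.72% and 6.56%, at percentiles 14.1 and 18.7.

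Ubx, abd-A and Abd-B are known to be transcribed toward lower coordinates, so the high end of each extent was taken as its 5′ end. Transcription starts inside the extents were not located here. No cluster lay near the 5′ end of Ubx, where the nearest started 28.2 kb away in replicate 1 and 62.7 kb away in replicate 2. In the replicate lists the nearest to the 5′ end of abd-A was 30.3 kb and 30.4 kb away, across the gene, and in the whole-series list it was 25.99 kb away on the upstream side, from 12681988 to 12683388. At Abd-B a cluster from 12794529 to 12796597 in replicate 1 (score 0.730) and from 12794578 to 12796852 in replicate 2 (1.14) ended 1.90 kb and 1.65 kb inside the 5′ end. At the 3′ end of Ubx a cluster covered the end itself, from 12479430 to 12483233 (score 1.89) in replicate 1 and from 12480224 to 12483405 (1.95) in replicate 2. These extents are approximate, so distances of about 1 kb cannot be read from them.

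The highest scores of the bithorax complex belonged to that cluster and to one between Ubx and abd-A. The latter ran from 12623238 to 12625678 in replicate 1 (score 1.77) and from 12623249 to 12625616 in replicate 2 (1.78), with edges 11 bp and 62 bp apart. It lay 6.82 kb and 6.88 kb from the low-coordinate end of abd-A. By score on the arm, the cluster at Ubx ranked 115 of 1682 and 82 of 1649, and the other 142 and 132. The same interval, which holds the noncoding RNA gene bxd next to Ubx, had 1 further cluster in replicate 1, from 12588684 to 12590757 (score 0.739), with no counterpart in replicate 2. Just beyond the high bound of the complex, 2.58 kb and 2.48 kb away, stood clusters with scores of 1.77 and 1.92. Just below its low bound, 0.899 kb and 0.998 kb away, stood clusters with scores of 0.504 and 1.08.

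Between abd-A and the 5′ end of Abd-B the clusters were mostly short and widely spread, with scores in the lower or middle range of the arm. This stretch holds iab regulatory domains, though not all of those of abd-A, and the miRNA genes mir-iab-4 and mir-iab-8. The domains are separated by boundary elements, whose positions in release 5 were not used here. The whole-series list had 8 clusters in it, with midpoints 12.04 to 23.4 kb apart and a median spacing of 15.5 kb, against 8.66 kb over 3R. Their lengths ran from 1281 bp to 3169 bp and their scores from 0.195 to 0.895. Of the 8, those from 12723886 to 12726204, 12743952 to 12746126, 12759652 to 12761344 and 12794466 to 12797634 touched clusters of both replicates. Those from 12694028 to 12695426 and 12708806 to 12710086 were found in replicate 2, with scores of 0.895 and 0.767 there, and that from 12782890 to 12784842 in replicate 1, with 0.989. The cluster from 12681988 to 12683388 was found in neither. The highest score percentiles in this stretch were 58.9 in replicate 1, at 12723856, 62.0 in replicate 2, at 12794578, and 60.3 in the whole-series list, at 12794466.

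Both replicates marked most of the same sites. In the Antennapedia complex 8 of 10 clusters of replicate 1 touched replicate 2 and 9 of 9 the reverse. In the bithorax complex 6 of 8 did in each direction. Over all of 3R the shares were 84.4% in replicate 1 and 85% in replicate 2, so the counts in both complexes are near this background. Of the whole-series clusters, 9 of 11 in the Antennapedia complex and 6 of 11 in the bithorax complex touched both replicates, against 69.9% over 3R. In base pairs, 26.6 kb of the Antennapedia complex lay in clusters of both replicates out of 31.7 kb in either, a Jaccard index (shared over total base pairs) of 0.840. None of its 525 windows reached this index, the highest being at 0.771. Without the cluster at the lab end the index was 0.796. The 6 kb cluster of part 3 held 6006 bp of the shared sequence, and the index without it was not computed. In the bithorax complex the index was 0.513, from 11.4 kb of 22.2 kb, with 39 of 527 windows at or below it and a window median of 0.616. Without the cluster at the 3′ end of Ubx it was 0.446.

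The edges of matched clusters, each the best partner of the other, were compared between the replicates. Over the 8 pairs of the Antennapedia complex the median shift of an edge was 112.5 bp, and 7 of 16 edges lay within 100 bp of each other. Over the 6 pairs of the bithorax complex it was 254 bp, with a median of 404 bp for the starts alone, and 3 of 12 edges lay within 100 bp. On the rest of 3R the median shift was 419 bp over 1193 pairs, 417 bp for the starts, and 19.6% of edges lay within 100 bp. The largest shift, 8443 bp, was at the cluster that replicate 1 split at the lab end. Scores of the pairs had a Spearman's rho of 0.86 over the 8 pairs of the Antennapedia complex and 0.6 over the 6 of the bithorax complex. The rho was 0.79 over the 14 pairs of both complexes and 0.53 over the rest of 3R. All pairs come from the same 2 libraries and are no independent samples.

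**Figure D4:**
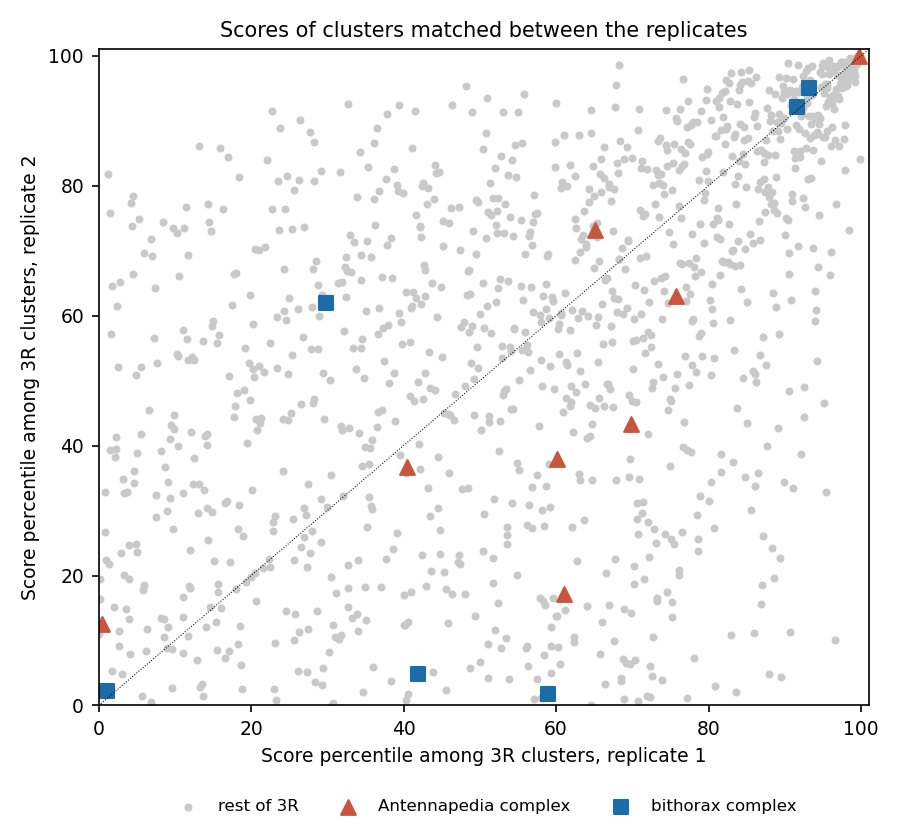
Percentile of the authors' score among the 3R clusters of the same list, replicate 1 (x axis) against replicate 2 (y axis), for matched clusters of the Antennapedia complex (red triangles, 8 pairs), the bithorax complex (blue squares, 6 pairs) and the rest of 3R (grey, 1193 pairs). A group of 3 sites of the complexes stands above percentile 90 in both replicates, and the others are spread over the range.

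By score the clusters of the complexes were spread over nearly the whole range of the arm. In the Antennapedia complex the median score percentile among 3R clusters was 60.6 in replicate 1 and 37.9 in replicate 2 (49.2 ± 16.0, SD, n = 2), with a range from 0.416 to 99.7 and from 0.667 to 99.9. In the bithorax complex it was 48.5 and 33.6 (41.1 ± 10.6), from 1.13 to 93.2 and from 1.82 to 95.1. The median was higher in the Antennapedia complex in each replicate list, and in the whole-series list it was 70.9 against 38.6. The 6 kb cluster of part 3, the cluster at the 3′ end of Ubx and that near abd-A were at percentiles of 91.6 or more in both replicates. How often high-scoring clusters elsewhere on 3R did so was not computed, so this cannot be called a trait of the complexes. Sites of medium score were mixed. Those at 2737171 (percentiles 40.5 and 36.7) and 2478632 (65.1 and 73.3) stayed closer, and others moved more. The cluster at 12723856 was at percentile 58.9 in replicate 1 and 1.82 in replicate 2, and that at 2695653 at 61.0 and 17.1. The one at 12794529, near the 5′ end of Abd-B, went the other way, from 29.8 to 62.0.

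Between the sites lay long stretches without a cluster. In the bithorax complex the longest ran from 12483234 to 12588683 in replicate 1 (105 kb) and from 12483406 to 12623248 in replicate 2 (140 kb), and took in nearly all of Ubx. They ranked 22 of 1681 and 12 of 1648 among the cluster-free stretches of 3R, and 94 and 41 of the 527 windows held one at least as long. The next ran across abd-A, from 12625679 to 12723855 in replicate 1 (98.2 kb) and from 12625617 to 12694000 in replicate 2 (68.4 kb). In the Antennapedia complex the longest began at 2739339 and 2739285 and crossed the high bound, with a length of 123 kb and 153 kb, of which 95.7 kb and 95.7 kb lay inside. A stretch as long as that inner portion was held by 144 and 157 of the 525 windows. In all, stretches of at least 30 kb took up 50.1% and 70.1% of the Antennapedia complex, against window medians of 45.5% and 46.7%. They took up 73.8% and 75.5% of the bithorax complex, against 45.9% and 46.7%, and 38 and 26 of its 527 windows held as much. In the whole-series list the share was 60.7% for the bithorax complex, with 103 of 527 windows holding as much, and 61.6% for the Antennapedia complex, with 82 of 525. In replicate 1, 229 of 525 windows held as much as the Antennapedia complex, so at this cut its share there was ordinary for the arm. In replicate 2, which lacked the 2 short clusters named above, 45 of 525 did. Stretches of 29.9 kb and 29.6 kb in replicate 1 and of 29.4 kb in replicate 2 fell just under 30 kb, so these shares depend on the cut.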

How the data were processed

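Chromatin of adult head nuclei was profiled by ChIP-seq with 2 ChIP and 2 input libraries. The submitters' processing notes name Bowtie 0.12.7, an aligner. The authors deposited 3 lists of regions of significant enrichment with a score for each, 1 per ChIP replicate and 1 for the whole series, in coordinates of FlyBase release 5 per the file headers. The unit of the deposited score, the caller, its threshold and the making of the whole-series list are not given in the sources used here. A shallow library or a stricter threshold gives fewer and shorter clusters, so scores were ranked within a list and covered length stands beside counts. The input libraries were not analysed on their own.

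Covered share is the base pairs inside clusters over the length of the stretch, with clusters trimmed to its bounds. Clusters were called shared from 1 bp of overlap. The approximate extents of Ubx, abd-A and Abd-B were set with the bounds of the complexes. No test was made, and values are given with the SD over 2 replicates. The 8 genes were all named, as were clusters of the whole-series list over 5 kb or among the 3 highest scores of a complex, and the longest cluster-free stretches. The remaining clusters were given to account for each one. The complexes, lists and measures were chosen with earlier results of these data known. Gene order is that of a RefSeq table of Release 6, of which no coordinate was used, and no sequence is printed because none of release 5 was used here. The overlap code was tested on 20 simulated lists. The work used scipy 1.17.1 for rank correlations, matplotlib 3.10.9 for figures, and pandas 2.3.3 with numpy 2.4.6 under Python 3.11.15 for the rest.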

Additional observations from a re-analysis of the deposited data

How the results depend on the processing

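Leaving out a replicate gave covered shares of 7.69 to 8.72% (Antennapedia complex) and 4.83 to 5.67% (bithorax complex), percentiles among windows of 2.86 to 3.62 and 0.569 to 1.14, shared clusters of 80.0 to 100% and 75.0%, and median score percentiles of 37.9 to 60.6 and 33.6 to 48.5. Of the 28 other settings, 19 moved a value beyond the SD between replicates or, for the Jaccard index, at the second decimal. In the order Antennapedia, bithorax, the covered share was 6.01% and 2.83% with clusters at or above the median score, and 6.61% and 3.81% with bounds moved inward by 10 kb. It was 7.23% in the whole-series list for the bithorax complex. The percentile was 9.81 and 2.09 above the median score, 6.60 and 2.84 on 4 arms, and 1.14 and 1.33 in the whole-series list. The shared clusters were 68.75% and 58.3% above the median score. The share over 3R under that filter is not given, so these cannot be set against the shares over all clusters of 3R. The Jaccard index, under settings chosen after seeing the data, was 0.796 and 0.387 with inward bounds, 0.796 and 0.446 without the cluster at the low bound, and 0.796 and 0.382 with clusters wholly inside, which at Ubx drops that of replicate 1 and keeps that of replicate 2. Under each setting that gave a percentile, both complexes lay below the median window. Fewer clusters are counted above the median score by construction, and the cause of the other shifts was not tested. No paired analysis was possible because inputs, which share their numbers with the ChIP libraries, carry no values here. The unknown read depth limits what can be said of weak sites.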

Other observations

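In part 2 of the Antennapedia complex, the whole-series list had a cluster from 2563988 to 2564988 with a score of 2.47, rank 23 of 1703 on 3R, that touched no cluster of either replicate. At 1001 bp it had the shortest length of that list, and a cluster of replicate 1 began 471 bp beyond it. Of the 1703 clusters of 3R in the whole-series list, 125 touched neither replicate, with a median score of 0.481, and 3 of these 125, this one included, scored as high. The shortest length was not its alone, as 11 of the 125 were 1001 bp long. A further cluster of the complex without a counterpart, from 2615210 to 2616388, had a score of 0.485.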
